A study of Homo sapiens with 18 samples.

Results

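The genes described here encode the proteins that detect misplaced DNA and RNA in the cytosol and pass the alarm on to the interferon genes. The set holds 8 of the 58302 genes in the expression table, TMEM173 (STING, now named STING1), DDX58 (RIG-I, now named RIGI), IFIH1 (MDA5), MAVS, TBK1, IKBKE, IRF3 and TREX1. It was listed by symbol and matched to Ensembl identifiers, and the list was drawn up with results of these libraries already known. For that reason the differences of these genes between the groups are given as a description, with no p-value. The genes were part of the fit of all genes. Where it is said that one passed the threshold of that fit, this is not read as a test of the gene.

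Cytosolic DNA is bound by the enzyme cGAS, which makes a cyclic dinucleotide that activates STING on the endoplasmic reticulum. Cytosolic double-stranded RNA is bound by the helicases RIG-I and MDA5, which signal through MAVS on the mitochondrial membrane. Both routes meet at the kinases TBK1 and IKKε (encoded by IKBKE), which phosphorylate the transcription factor IRF3, and the exonuclease TREX1 degrades cytosolic DNA before cGAS can find it. Tumour cell lines often express little STING or cGAS.

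PANC-1, an established human line of pancreatic ductal adenocarcinoma, was infected with a lentivirus carrying a control vector (shCtrl) or an shRNA against NAT10 (shNAT10), and stable cells were kept. The labels call the control vector empty, whereas the methods list a non-targeting hairpin as the shRNA control. NAT10 is the acetyltransferase that makes N4-acetylcytidine (ac4C) in RNA. RNA-seq was run on 3 libraries per group, and acRIP-seq, in which RNA fragments are pulled down with an antibody to ac4C, on 3 immunoprecipitated (IP) and 3 input libraries per group. The methods list more than 1 shRNA against NAT10 and do not say which of them these cells carry, so an effect of a single hairpin cannot be told apart from an effect of NAT10, and no label says that replicates came from separate cultures.

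NAT10 itself, the target of the hairpin, had 31.6, 27.7 and 28.6 FPKM (fragments counted on the gene, scaled by its transcript length and by the depth of the library) in the shCtrl libraries and 7.92, 8.43 and 7.90 FPKM in the shNAT10 libraries. It fell by 1.84 ± 0.08 on the log2 scale (SE, adjusted p = 3.85e-05, limma). Rounded to reads, the values summed to between 15964222 and 23718071 per library. All 7 genes listed as markers of a ductal line, VIM among them, reached 1 FPKM. They summed to 3860 to 5130 FPKM in shCtrl and 2790 to 3040 in shNAT10. Of these, KRT8 had 1560 to 2010 FPKM in shCtrl and 711 to 819 in shNAT10. KRT7, KRT18 and KRT19 were lower too (log2 fold changes of -0.84 to -0.83). EPCAM was higher, at 4.01 to 5.55 and 21.1 to 24.2 FPKM, and SOX9 slightly higher, at 36.3 to 39.5 and 43.3 to 43.8. VIM, a large part of the sum, overlapped between groups, at 1040 to 1350 FPKM in shCtrl and 1250 to 1350 in shNAT10. Of 6 leukocyte markers only CD14 reached 1 FPKM, with 2.14 to 2.93 FPKM in shCtrl and 1.34 to 1.56 in shNAT10. The leukocyte markers summed to 2.28 to 2.96 FPKM in shCtrl and 1.41 to 1.62 in shNAT10, with the T cell gene CD3E at 0 throughout. The pan-leukocyte gene PTPRC was at 0 in the 3 shCtrl libraries and at most 0.0399 FPKM in shNAT10. Of 5 endothelial and fibroblast markers only COL1A1 reached 1 FPKM, at 28.6 to 34 and 17.3 to 20.8. The part of these marker differences in the results was not tested. The shCtrl libraries differed among themselves by transcript length. The median log2 deviation from the group mean was 0.20 for the shortest quartile and -0.19 for the longest in replicate 2, -0.14 and 0.14 in replicate 1, and -0.05 and 0.05 in replicate 3. In the shNAT10 libraries it stayed between -0.03 and 0.03.

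The acRIP-seq peaks carry the sequences of interest and are shown first. The deposited data hold a single list of peaks per group, and a peak is a stretch of transcript in which IP reads exceeded input reads. TMEM173, on the minus strand of chromosome 5 (chr5:139475534-139482935, GRCh38), had 3 peaks in the shCtrl list. Each lay partly in coding sequence and partly in bases that only a non-coding transcript of the gene covers. They are printed in transcript direction, 5′ to 3′, in lower case. Capitals mark matches to CNNCNNCNNCNN, a spaced cytidine pattern often associated with NAT10 sites, searched on the transcript strand only. The first peak spans chr5:139478385-139478564, the second chr5:139479191-139480955 with an intron removed, and of the third the central 300 bases are given (chr5:139481373-139481672).
TMEM173 peak 1: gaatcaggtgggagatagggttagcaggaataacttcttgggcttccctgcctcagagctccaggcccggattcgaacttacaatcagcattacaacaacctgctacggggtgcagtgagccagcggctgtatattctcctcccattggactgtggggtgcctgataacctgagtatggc
TMEM173 peak 2: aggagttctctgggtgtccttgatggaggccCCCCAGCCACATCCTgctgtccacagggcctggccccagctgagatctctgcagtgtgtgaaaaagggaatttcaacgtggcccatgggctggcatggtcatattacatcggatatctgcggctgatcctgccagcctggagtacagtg
TMEM173 peak 3: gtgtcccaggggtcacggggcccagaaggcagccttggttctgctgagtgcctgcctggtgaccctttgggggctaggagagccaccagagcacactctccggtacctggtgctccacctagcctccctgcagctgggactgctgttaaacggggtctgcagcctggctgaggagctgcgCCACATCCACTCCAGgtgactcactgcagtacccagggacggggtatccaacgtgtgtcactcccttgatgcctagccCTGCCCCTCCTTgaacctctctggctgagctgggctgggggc

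The pattern occurred 0, 2 and 4 times over the whole of these 3 peaks, counting overlapping matches. Both matches of peak 2 lie in bases that only a non-coding transcript covers. In the printed part of peak 3 the first capital block lies in coding sequence and the second in such non-coding bases. For comparison, 51.9% of the peaks that could be placed on a transcript held it at least once in the shCtrl list, and 51.9% in the shNAT10 list. Fold enrichment of IP over input was 52.8, 312 and 627 in the order shown. The median was 49.3 over all 16892 shCtrl peaks and 113 for those on genes at 3 to 10 FPKM, where TMEM173 lay. The shNAT10 list had no TMEM173 peak.

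The RNA sensors showed the same division between the lists. DDX58 had 2 shCtrl peaks with a fold enrichment of 88.1 and 13.4, and IFIH1 had 2 with 31.0 and 211. Neither gene had a peak in the shNAT10 list. The stronger peak of each is printed here because it lies wholly in coding sequence (chr9:32491404-32493834 for DDX58 and chr2:162310763-162317864 for IFIH1, both on the minus strand with introns removed). Neither holds a match to the cytidine pattern, so no base is capitalised.
DDX58 peak 1: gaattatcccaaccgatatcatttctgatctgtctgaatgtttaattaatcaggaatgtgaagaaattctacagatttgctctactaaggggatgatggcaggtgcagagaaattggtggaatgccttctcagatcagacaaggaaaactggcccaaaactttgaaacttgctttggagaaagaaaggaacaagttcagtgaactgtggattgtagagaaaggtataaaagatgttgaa
IFIH1 peak 2: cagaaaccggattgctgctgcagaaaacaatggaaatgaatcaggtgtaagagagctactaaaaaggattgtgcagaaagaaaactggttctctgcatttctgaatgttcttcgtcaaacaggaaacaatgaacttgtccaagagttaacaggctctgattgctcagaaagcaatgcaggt

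TREX1 had 1 peak, in the shCtrl list only, with a fold enrichment of 962. It lies wholly in coding sequence. Every exon base of TREX1 (100%) is also an exon base of another gene on the same strand, chiefly ATRIP. The peak is listed under TREX1, but its reads cannot be assigned to TREX1 alone.

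IKBKE showed the opposite arrangement. It had no shCtrl peak and 6 shNAT10 peaks, with a fold enrichment of 1200, 1120, 164, 292, 1470 and 4260 along the transcript. The first lay in the 5′ UTR, the last in the 3′ UTR and the others wholly or partly in coding sequence. The last ranked at the 99.6th percentile of the shNAT10 list. The coding peaks printed here are the second (chr1:206476301-206476795), which codes for part of the kinase domain, and the fifth (chr1:206480027-206485061), which holds 6 overlapping or separate matches in capitals. Both are on the plus strand with introns removed.
IKBKE peak 2: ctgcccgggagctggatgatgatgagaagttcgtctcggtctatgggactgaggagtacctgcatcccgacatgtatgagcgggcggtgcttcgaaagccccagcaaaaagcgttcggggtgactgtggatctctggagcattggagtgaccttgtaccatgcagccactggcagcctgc
IKBKE peak 5: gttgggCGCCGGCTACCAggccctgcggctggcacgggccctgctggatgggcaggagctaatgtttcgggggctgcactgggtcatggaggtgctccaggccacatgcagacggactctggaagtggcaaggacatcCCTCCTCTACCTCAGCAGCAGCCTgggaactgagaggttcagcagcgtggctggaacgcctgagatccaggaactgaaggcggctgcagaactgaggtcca

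TBK1, the close paralogue of IKBKE, had 3 peaks in each list, with a fold enrichment of 16.4, 9.37 and 87.1 in shCtrl and of 72.3, 34.9 and 33.5 in shNAT10. The first peak of the shNAT10 list is 181 bases long and lies wholly within the first peak of the shCtrl list, covering 66.8% of it. Another pair shared 31 bases, which is 10.3% of the longer peak. The shared stretch is printed here (chr12:64466948-64474275, plus strand, introns removed) because it codes for the part of the TBK1 kinase domain that matches the second IKBKE peak. The ungapped alignment of these peaks had 74 identical bases over 108 aligned bases (68.5%). No match to the cytidine pattern was found in it.
TBK1 shared peak: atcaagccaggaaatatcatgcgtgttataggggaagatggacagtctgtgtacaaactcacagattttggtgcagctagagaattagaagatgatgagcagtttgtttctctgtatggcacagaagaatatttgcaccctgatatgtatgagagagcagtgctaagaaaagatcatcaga

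The remaining adaptor and transcription factor also had peaks in both lists, but at other places. MAVS had 2 peaks in each, all in the 3′ UTR, with a fold enrichment of 6.79 and 2.42 in shCtrl and of 8.86 and 15.7 in shNAT10. No base was shared between them. IRF3 had 4 shCtrl peaks (169, 18.7, 2.55 and 21.6) and 1 shNAT10 peak (95.1), which also shared no base.

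In all, 4 of the 8 genes had a peak in shCtrl only, 3 in both lists and 1 in shNAT10 only. The 4 include TREX1, whose peak lies in bases shared with another gene. Of the 11047 genes with a peak in either list, 27.8% had it in shCtrl only, 46.9% in both and 25.4% in shNAT10 only. The lists pool the replicates, so no error can be given for any of these counts. When only the more enriched 50% of either list was kept, 2 of the genes in place of 3 had a peak in both. TBK1 was the gene whose peaks overlapped between lists, also when at least 50% of both peaks had to be shared. Loss of a peak and loss of the transcript cannot be told apart from these lists.

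Fold enrichment was lower on more strongly expressed genes. In the shCtrl list its median was 245 for peaks on genes at 1 to 3 FPKM, 113 at 3 to 10, 31.9 at 10 to 30 and 9.33 at 30 or more. The shNAT10 medians were 234, 107, 31.8 and 8.82. IKBKE and IFIH1 belong to the weakly expressed genes and TBK1, IRF3 and MAVS to the stronger ones. The part of expression level in the order of these peaks was not tested.

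At the RNA level, TMEM173 had 5.82, 7.55 and 7.01 FPKM in the shCtrl libraries and 1.03, 0.868 and 0.99 FPKM in the shNAT10 libraries. The highest knockdown library lay far below the lowest control library. Whole reads recovered from the FPKM steps were 323, 489 and 528 in shCtrl and 52, 54 and 56 in shNAT10. The mean was 6.79 ± 0.887 FPKM (SD, n = 3) against 0.961 ± 0.0828 (SD, n = 3), which is 14.2% of the control mean. The log2 fold change was -2.69 ± 0.14 (SE), the 10th lowest of the 12982 genes tested. It ranged from -2.80 to -2.61 when any 1 library was left out. A pseudocount of 1 in place of 0.1 gave -1.98 and voom on the recovered reads gave -2.81.

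IFIH1, the sensor of long double-stranded RNA, was also lower in the knockdown. It had 3.93, 3.90 and 4.13 FPKM in shCtrl and 2.35, 1.72 and 1.71 FPKM in shNAT10, with no overlap between groups. The log2 fold change was -1.02 ± 0.14 (SE), so about 48.4% of the control mean was left.

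DDX58, which senses short RNA with a 5′ triphosphate, was slightly higher. Its values were 12.6, 10.6 and 12.9 FPKM in shCtrl and 14.4, 14.1 and 15.2 FPKM in shNAT10, again with no overlap. The log2 fold change was 0.27 ± 0.09 (SE). The difference passed the threshold used for all genes only narrowly, and no longer did so when shCtrl replicate 3 (0.33) or any 1 of the shNAT10 replicates was left out (0.28, 0.30 and 0.24 without replicate 1, 2 and 3), nor without a filter on low values or without the mean-variance trend.

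MAVS, the adaptor shared by both RNA sensors, had 17, 14.6 and 15 FPKM in shCtrl and 16.7, 15.9 and 16.1 FPKM in shNAT10. The groups overlapped and the log2 fold change was 0.07 ± 0.08 (SE).

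Of the kinases, TBK1 had 24.7, 21.2 and 23.9 FPKM in shCtrl and 18.6, 21.0 and 21.5 FPKM in shNAT10. The groups overlapped by 1 library, and the log2 fold change was -0.19 ± 0.09 (SE). Without shCtrl replicate 2 it was -0.25 and passed the threshold. IKBKE had 1.61, 2.12 and 1.68 FPKM in shCtrl and 1.90, 1.57 and 1.46 FPKM in shNAT10, with a log2 fold change of -0.13 ± 0.17 (SE). It was the weakest of the genes with a measured level in shCtrl, and its 6 peaks in shNAT10 came with 97, 98 and 83 recovered reads against 90, 138 and 127 in shCtrl.

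IRF3, which carries the signal to the nucleus, had 21.9, 29.5 and 21.9 FPKM in shCtrl and 20.7, 20.6 and 18.6 FPKM in shNAT10. The groups did not overlap, but shCtrl replicate 2 was the only high library. The log2 fold change was -0.28 ± 0.13 (SE), and -0.14 without that library. Exons of other genes lay antisense to 19.3% of the exon bases of IRF3, 14.7% of those of TBK1 and 4.1% of those of IKBKE. Whether the RNA-seq counting used strand is not given in the sources used here, so reads of these partners may be included.

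TREX1 was listed at 0 in all 6 libraries. Every exon base of TREX1 (100%) is also an exon base of another gene on the same strand, chiefly ATRIP, and ATRIP, named here after its values were seen, reached no more than 0.0567 FPKM. How reads in such shared bases were counted is not given, and the level of TREX1 RNA cannot be read from the table.

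**Figure D1:**
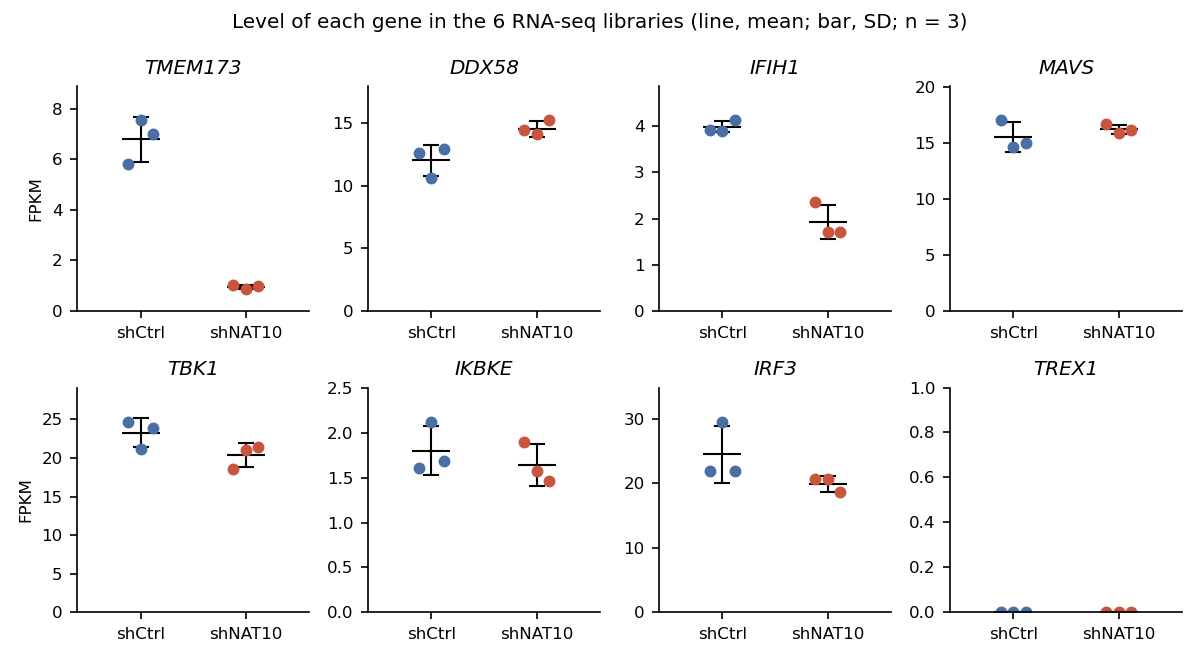
FPKM of the 8 genes in each of the 3 shCtrl (blue) and 3 shNAT10 (red) libraries, each panel on its own scale from 0, with the mean as a line and the SD as a bar. TMEM173 and IFIH1 separate widely, DDX58 and IRF3 narrowly, and TREX1 is at 0 throughout.

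Of the 7 genes that passed the filter on low values (1 FPKM or more in 3 or more libraries), 3 were past the adjusted threshold of 0.05 in limma, TMEM173 and IFIH1 lower and DDX58 higher. Over all 12982 genes tested, 42.0% were past it, 21.2% lower and 20.8% higher. TMEM173 and IFIH1 also exceeded a log2 fold change of 1, as did 6.48% of all genes. The groups did not overlap for 4 of the 7, TMEM173, IFIH1, DDX58 and IRF3, and for 56.5% of all genes. The median log2 fold change was -0.19 for the 7 genes and -0.01 for all genes. Since the list was made with these values known, nothing is read from the counts.

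On the per-length FPKM scale the order of levels in shCtrl was IRF3, TBK1, MAVS, DDX58, TMEM173, IFIH1 and IKBKE, from 24.5 down to 1.80 FPKM. Only IRF3 and TBK1 overlapped among neighbours. In shNAT10 the order was TBK1, IRF3, MAVS, DDX58, IFIH1, IKBKE and TMEM173, from 20.4 down to 0.961 FPKM. There TBK1 overlapped IRF3 and IFIH1 overlapped IKBKE. TMEM173 had moved from the fifth to the last of the 7, below IKBKE in every knockdown library.

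The genes whose levels over the 6 libraries followed TMEM173 most closely were TSPYL2, ACP7, WDR55, RAB7A and HAP1, with a Pearson r of 0.9985 to 0.9995. RAB7A, a GTPase of late endosomes, had 121, 128 and 124 FPKM in shCtrl and 62.2, 61.0 and 62.3 in shNAT10. HAP1 had 3.31, 4.23 and 3.91 FPKM against 0.934, 0.932 and 0.926. The points form 2 groups, and 198 genes had an r above 0.99, so the measure hardly sets these 5 apart from many others.

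Other genes of the pathway were grouped by role into 6 lists of 98 genes in all. The lists were also drawn up with earlier results of these data known, and each gene was tested singly in the fit of all genes, with no test of a list. Of the 75 genes tested, 23 fell (30.7%), 12 rose (16.0%) and 40 did not pass, beside 21.2% lower and 20.8% higher over all genes. In all, 46.7% were past the threshold, beside 42.0% of all genes, and nothing is read from the difference. Genes below the filter included AIM2, IFNB1, IFNA1, CXCL10 and CXCL11, which were listed at 0 in all libraries.

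Of 9 DNA sensors tested, 2 fell, 1 rose and 6 did not pass, with a median log2 fold change of -0.05. CGAS, which acts directly upstream of STING, had 8.89, 8.94 and 9.93 FPKM in shCtrl and 3.08, 3.77 and 3.66 FPKM in shNAT10. It fell by 1.38 ± 0.10 on the log2 scale (SE, adjusted p = 0.000173). It had 1 peak in the shCtrl list, with a fold enrichment of 22.8, and none in shNAT10. POLR3B, a subunit of the RNA polymerase that transcribes AT-rich cytosolic DNA, fell by 1.37 ± 0.14 (adjusted p = 0.000494). LRRFIP1, a nucleic acid binding protein, rose by 0.44 ± 0.11 (adjusted p = 0.0173), but missed the threshold when any 1 shNAT10 library was left out (0.0558 to 0.0664).

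Of 14 RNA sensors and cofactors tested, 7 fell, 1 rose and 6 did not pass (median -0.41). OAS3, a synthetase of the messenger that activates RNase L, fell by 1.28 ± 0.16 (adjusted p = 0.00103), and its relative OAS1 fell by 1.06 ± 0.23 (adjusted p = 0.0102). EIF2AK2, the kinase PKR that halts translation on binding double-stranded RNA, fell by 0.84 ± 0.15 (adjusted p = 0.00402). The 1 that rose was MFN1, a mitochondrial fusion protein that binds MAVS. It had 11.8, 9.59 and 12.1 FPKM in shCtrl and 26.5, 27.8 and 28.4 FPKM in shNAT10, a rise of 1.30 ± 0.10 (adjusted p = 0.000193).

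The 19 tested genes of STING trafficking, ligand supply and turnover went both ways, with 3 lower, 7 higher and 9 that did not pass (median 0.13). ZDHHC7, which palmitoylates STING at the Golgi, rose by 0.77 ± 0.06 (adjusted p = 0.000215). INSIG1, a membrane protein of the endoplasmic reticulum, rose by 0.73 ± 0.06 (adjusted p = 0.000273). ENPP1, the ectoenzyme that hydrolyses the cyclic dinucleotide of cGAS, fell by 0.81 ± 0.16 (adjusted p = 0.00621). PPP6C, a phosphatase catalytic subunit, fell by 0.74 ± 0.08 (adjusted p = 0.000528).

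Among 18 kinase adaptors and transcription factors, all of them tested, 14 did not pass, 3 fell and 1 rose (median -0.08). TRAF3, the ubiquitin ligase between MAVS and TBK1, rose by 0.81 ± 0.10 (adjusted p = 0.00116). IRF5 fell by 0.91 ± 0.24 (adjusted p = 0.0198) from a mean of 1.10 to 0.540 FPKM. RELA, a subunit of NF-κB, fell by 0.36 ± 0.09 (adjusted p = 0.0145) and OPTN, an adaptor of TBK1, fell by 0.26 ± 0.07 (adjusted p = 0.0182). These 3 falls did not hold without certain libraries. IRF5 missed the threshold without shCtrl replicate 2 or 3 or shNAT10 replicate 2 or 3 (adjusted p 0.0532 to 0.0641), RELA without shNAT10 replicate 3 (0.0514), and OPTN without any 1 shNAT10 library (0.0679 to 0.0707).

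Of 10 tested genes of nucleic acid clearance, 3 fell, 2 rose and 5 did not pass (median -0.04). SKIC2, the helicase of the complex that feeds RNA to the exosome, rose by 0.67 ± 0.07 (adjusted p = 0.000587). RNASEH2A, the catalytic subunit of RNase H2, rose by 0.59 ± 0.14 (adjusted p = 0.0146), or 0.0578 without shNAT10 replicate 1. SAMHD1, which hydrolyses deoxynucleotides, fell by 0.41 ± 0.10 (adjusted p = 0.0175), or 0.0698 and 0.0610 without shNAT10 replicate 1 and 2. The mitochondrial helicase SUV3 (SUPV3L1) fell by 0.33 ± 0.09 (adjusted p = 0.0226), and missed the threshold without shCtrl replicate 3 (0.0512) or shNAT10 replicate 2 (0.0717) or 3 (0.0903).

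The tested targets of IRF3 and interferon went 1 way. Of 16 listed, 5 were tested and all 5 fell (median -1.21), beside 21.2% lower over all genes. The rest lay below the filter on low values, so nothing is said of their direction. IFIT2, which binds RNA and is induced directly by IRF3, had 11.2, 9.83 and 12.2 FPKM in shCtrl and 1.93, 1.56 and 1.85 FPKM in shNAT10. It fell by 2.58 ± 0.12 (adjusted p = 5.03e-05). IFIT3 fell by 2.26 ± 0.20 (adjusted p = 0.000309) and IFIT1 fell by 0.85 ± 0.10 (adjusted p = 0.000713). ISG15, a ubiquitin-like modifier, had 33.0, 62.5 and 45.4 FPKM in shCtrl and 22.2, 19.8 and 16.9 FPKM in shNAT10, a fall of 1.21 ± 0.22 (adjusted p = 0.00532). Among the others, IFNL1 and IFNL2 averaged under 0.1 FPKM in both groups. The interferons themselves were thus at or near 0 in control cells as well.

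**Figure D2:**
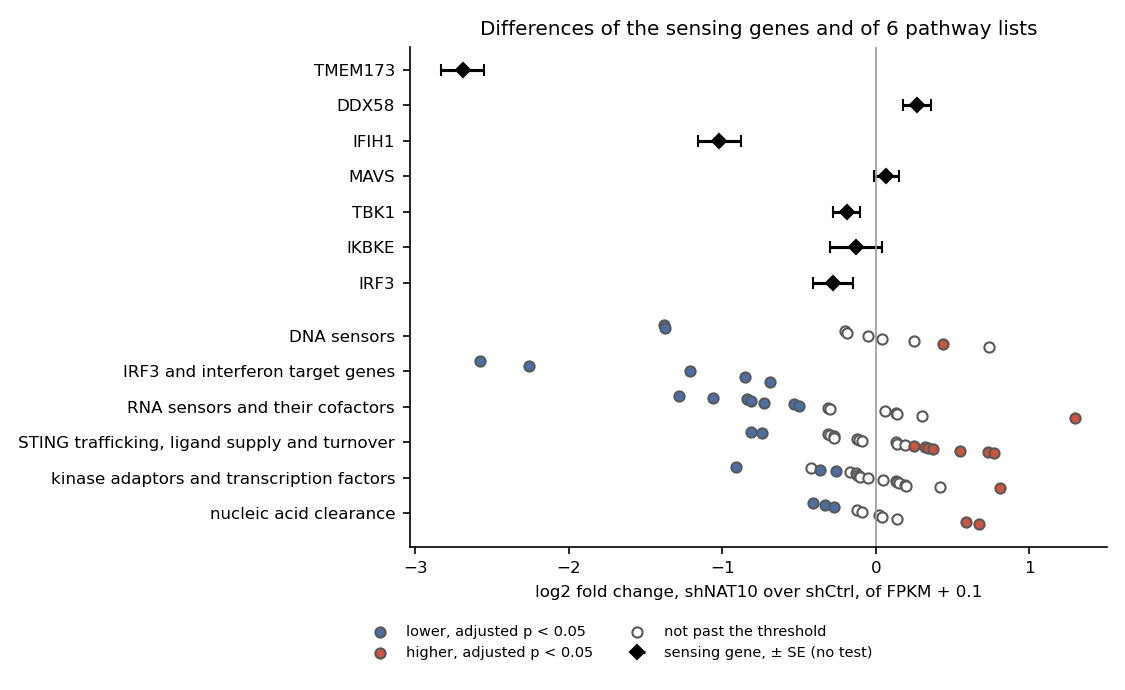
Log2 fold change of shNAT10 over shCtrl on FPKM + 0.1 for the 7 measured sensing genes (diamonds with SE) and for each tested gene of the 6 lists (circles, filled where the adjusted p was below 0.05). TMEM173 lies furthest to the left at -2.69, and all 5 tested interferon targets lie left of 0.

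Promoters were compared for the sensors, because DDX58 and IFIH1 are themselves known interferon-induced genes. RefSeq promoter windows (GRCh38.p14) were matched for 6 of the 8 genes, all but TMEM173 and IRF3. The motif searched was GAAANNGAAA or GAAANGAAA, the core of an interferon-stimulated response element, on both strands in the 250 bases before the start. It occurred in 5.48% of all 35116 windows, in 2 of the 6 matched sensing genes and in 11 of the 12 matched interferon targets. Among the 5 tested targets that fell, IFIT1, IFIT3 and ISG15 held it. No match was recorded for the rest of the 5, which may lack a window. The other targets with a match were not tested for level, among them IFNA1, CXCL10 and CXCL11 at 0 FPKM. DDX58 had 1 match (chr9:32526197-32526446, minus strand) and IFIH1 had 3, of which 2 overlap (chr2:162318685-162318934, minus strand). The windows are given on the strand of the gene with matches in capitals.
DDX58 promoter: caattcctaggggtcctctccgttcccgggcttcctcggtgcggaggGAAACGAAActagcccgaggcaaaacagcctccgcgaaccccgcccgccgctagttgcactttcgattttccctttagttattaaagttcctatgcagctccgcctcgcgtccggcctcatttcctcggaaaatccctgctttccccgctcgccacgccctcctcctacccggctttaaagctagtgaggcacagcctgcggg
IFIH1 promoter: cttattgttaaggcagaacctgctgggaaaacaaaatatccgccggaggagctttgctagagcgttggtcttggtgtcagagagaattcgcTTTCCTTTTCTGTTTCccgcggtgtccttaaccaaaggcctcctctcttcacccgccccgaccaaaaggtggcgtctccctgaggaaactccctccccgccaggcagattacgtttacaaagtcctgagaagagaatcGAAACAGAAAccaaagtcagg

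Both windows hold the motif, and IFIH1 was lower and DDX58 slightly higher in the knockdown. A link between the motif and these levels was not tested. A match is a stretch of letters and not a site of binding. TBK1, IKBKE, MAVS and TREX1 had none in this window.

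**Figure D3:**
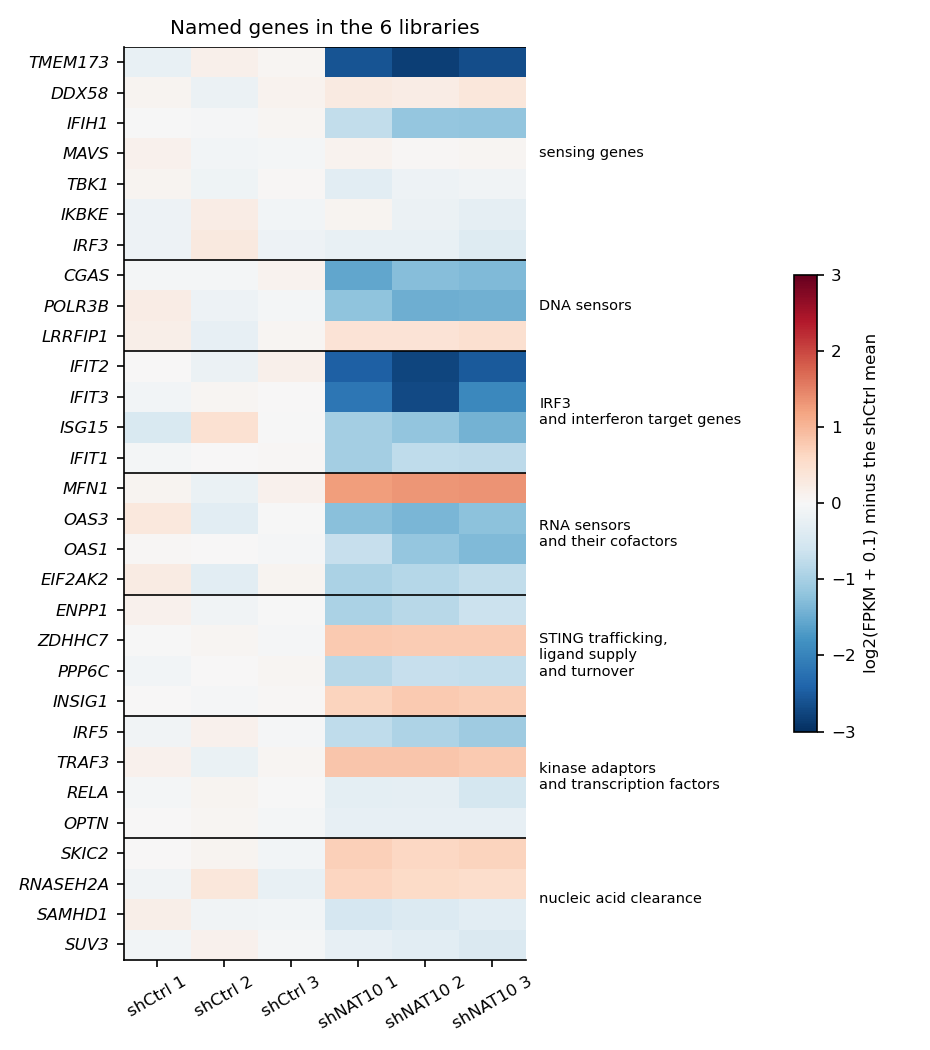
Log2(FPKM + 0.1) of each named gene in each library, minus the mean of the 3 shCtrl libraries, from blue (-3) to red (3), grouped by role. TMEM173, IFIT2 and IFIT3 are the darkest blue rows in all 3 shNAT10 libraries, and MFN1 is the reddest.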

How the data were processed

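The cells, groups and assays are described above, and each library was assigned by its label. The authors deposited FPKM values per Ensembl gene for the 6 RNA-seq libraries and, for acRIP-seq, 1 peak list per group with the fold enrichment of each peak as a ratio and its p-value. Those lists also hold the authors' log values of the false discovery rate, which were not used. The submitters' processing notes name HISAT2 (version 2), HTSeq 0.11.0, DESeq2 1.22.2 and the build hg38 (GRCh38). The peak caller is not given in the sources used here.

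Genes and peaks were placed on GENCODE v29 (58039 of 58302 genes). Of the values above 0, 97.0% lay within 0.02 of a whole number of reads. The values of all placed genes, rounded to reads, summed to the depth, 15964222 to 23718071 per library. Genes with whole reads in all 6 libraries entered 1 alternative (voom). TMEM173 thus rests on 52 to 528 reads per library. P-values measure only the spread between these libraries, which may be technical.

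Log2(FPKM + 0.1) was fitted with limma 3.58.1 (R 4.3.3) with a mean-variance trend, over 12982 genes that reached 1 FPKM in 3 or more libraries. Benjamini-Hochberg adjustment ran over all of them, and fold changes on this scale understate the change of low genes. Peaks on the same strand counted as overlapping from 1 shared base. On simulated data with 12982 genes, 79 of 100 genes changed by 1 and 96 of 100 changed by 2 on the log2 scale were called, with 10 calls among unchanged genes. The simulation drew noise independently for each gene and changed far fewer genes than the 42.0% called in the data. It held no deviation by transcript length as seen in shCtrl, so these rates check the code and do not carry over to the data.

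The sensing genes, the lists and the tests were chosen with earlier results of these data known. Named were the 8 genes, NAT10, in each of the 6 lists at most 4 called genes with the largest log2 fold change, and the 5 genes closest to TMEM173 in Pearson correlation. Alternatives were other pseudocounts, filters, scalings, no trend, voom, a replicate block and each library left out. Figures were drawn with matplotlib 3.10.9. Some single items are not reported here.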

Additional observations from a re-analysis of the deposited data

How the results depend on the processing

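Depth limits the weak genes, among them TMEM173 in shNAT10, IKBKE, OAS1, IRF5 and IFIT3, and peak counts have no replicate error. Alternatives were run for the log2 fold changes of the sensing genes, NAT10 and the at most 4 genes named per list. None of these changed sign. The keratins and USP18 were not put through the alternatives. Leaving out 1 library moved the number of all genes called between 3550 and 6621 (5450 with all 6), with 1765 to 3318 lower and 1774 to 3303 higher. The total was 3550 without shNAT10 replicate 3. Those lower were 1831 without shNAT10 replicate 1 and 1765 without replicate 3, and those higher 1774 without replicate 2 and 1785 without replicate 3. The sensing genes called ranged from 2 to 4, with 2 to 3 lower and 0 to 1 higher.

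The sensing genes called lower were 1 with an FPKM of at least 5, since IFIH1 was then not tested. Those called higher were 0 without a filter and 0 without the trend. The pathway genes called ranged from 25 to 42 when 1 library was left out, 16 to 27 lower and 8 to 15 higher. By list the ranges were, for DNA sensors, 2 to 3 lower and 0 to 2 higher. For RNA sensors they were 6 to 8 lower and 1 to 2 higher, for STING trafficking 2 to 5 and 5 to 7, for kinase adaptors 0 to 3 and 1 to 2, for clearance 0 to 3 and 1 to 2, and for interferon targets 4 to 5 and 0. With an FPKM of at least 5, 1 DNA sensor and 4 RNA sensors were lower and 2 RNA sensors higher. POLR3B, OAS1, TICAM1 and TRIM14 were then not tested. Quantile normalization gave 2 RNA sensors higher. Rescaling to TPM gave 3 RNA sensors and 2 kinase adaptors higher and 1 clearance gene lower, and moved the median of all genes to 0.10. OPTN and SAMHD1 then missed the threshold (adjusted p = 0.113 and 0.0971, limma). Voom covered the 12480 tested genes with whole reads in all 6 libraries. It gave 2 DNA sensors and 2 RNA sensors higher, and 1 clearance gene lower and 1 higher. The clearance genes RNASEH2A, RNASEH2B and SAMHD1 lacked whole reads and were not in that fit. The cause of the other shifts in these counts was not tested.

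Deviations of the genes from their group means correlated at -0.04, 0.06 and 0.11 between same-numbered shCtrl and shNAT10 libraries. Between differently numbered libraries they correlated at -0.12 to 0.06. Values this close to 0 cannot settle whether the replicate numbers pair the libraries. With the replicate number as a block, 5127 genes were called, 3 sensing genes and 35 pathway genes, with 2 DNA sensors and 2 RNA sensors higher. IRF5 missed the threshold (adjusted p = 0.0527).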

Other observations

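Peaks were also listed on DNA sensors that the RNA-seq hardly registered, which were picked out after their values were seen. AIM2, the sensor of the inflammasome, was listed at 0 FPKM in all 6 libraries and had 2 shCtrl peaks, the stronger with a fold enrichment of 868, and no shNAT10 peak. IFI16, a nuclear DNA sensor, averaged 0.0510 FPKM in shCtrl and 0.0459 in shNAT10, with 3 shCtrl peaks of up to 1710 and 4 shNAT10 peaks of up to 3850. Over all genes below 1 FPKM the median fold enrichment was 270 in shCtrl and 247 in shNAT10, above the medians of better expressed genes.

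The 5 tested interferon targets, all lower in the knockdown, differed in their listed peaks. IFIT2 had 1 peak in each list, with a fold enrichment of 148 in shCtrl and 466 in shNAT10. IFIT1 had none in either list, and IFIT3 had 1 in shNAT10 only (83.5). ISG15 had 1 in shCtrl only (6.0). USP18, named here to complete the tested targets, fell by 0.69 ± 0.17 (SE, adjusted p = 0.016, limma). It had 3 peaks in shCtrl (up to 634) and 1 in shNAT10 (4320). OAS3, from the list of RNA sensors, had 5 peaks in shCtrl and 2 in shNAT10. These are single pooled lists, and no test was made.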
